A study of Homo sapiens with 6 samples.

Results

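Sestrins and the GATOR complexes tell the kinase complex mTORC1 whether amino acids are at hand. SESN1, SESN2 and SESN3 bind GATOR2, SESN1 and SESN2 let go of it when leucine is present, CASTOR1 does so when arginine is present, and GATOR2 in turn counters GATOR1, which switches off the Rag GTPases that bring mTORC1 to the lysosome. Much of this route was worked out in HEK293 derivatives, and the sestrin genes are also known as stress-response genes, SESN1 in the response to DNA damage, SESN2 as a target of ATF4 and SESN3 as a target of FOXO factors. The genes described here were the 3 sestrins, the arginine sensor CASTOR1, the GATOR2 members MIOS, WDR24 and WDR59 and the GATOR1 members DEPDC5, NPRL2 and NPRL3. They were found as all probe sets whose platform annotation gave 1 of these symbols and no other: 27 probe sets for 10 genes, of 54613 probe sets in all. Of these, 16 were bright enough to enter the fit, with at least 1 for each of the 10 genes, and 11 lay below the filter on dim probe sets. The genes were chosen with their response to TET knockdown known, so their differences between the groups are given as a description. No test of their own was run. Their intervals and calls come from the fit over all tested probe sets and are not read as support.

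The data came from 6 one-colour Affymetrix arrays of Flp-In T-REx 293, a line derived from HEK293 human embryonic kidney cells so that a transgene can be placed at a fixed site. Every clone held a stable, inducible transgene for GFP, which was not switched on. In 3 arrays the cells had received siRNA against TET1, TET2 and TET3 at once, the enzymes that oxidise 5-methylcytosine in DNA, and in the other 3 arrays a pool of non-targeting siRNA (control siRNA). RNA of both groups was taken 96 h after treatment. The labels name the same 3 clones in both groups, so each clone had 1 array per treatment, and all are clones of 1 line. Values are MAS5 signals on a linear scale, and a difference is the mean log2 signal under TET siRNA minus that under control siRNA. A probe set's signal depends on its probes as well as on the RNA, so signals were compared between arrays and not between probe sets or genes. In RNA of whole cultures, a change in the share of cells that make an RNA and a change in its amount per cell cannot be told apart.

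By geometric means at their brightest probe sets, TET1 stood at 17.9%, TET2 at 46.8% and TET3 at 42.9% of control. Arrays correlated with one another at 0.934 to 0.944 over all 54613 probe sets, dim ones included. Of 5 genes known from HEK293 cells (NEFL, NEFM, INA, PAX2 and LHX1), 4 passed the brightness filter and LHX1 did not, and the summed signal of all 5 was 19700 to 24148 under TET siRNA and 23456 to 26693 under control siRNA. NEFL made up most of that sum, with means of 19627 under TET siRNA and 22354 under control siRNA. The means of INA and PAX2 were higher under TET siRNA, and those of NEFM and LHX1 were lower. Of 8 markers of other cell types, 3 passed (HBB, PECAM1 and DES), the brightest at a geometric mean signal of 213, and the summed signal of all 8 was 701 to 838 against 693 to 805. The part of these markers in the results was not tested. In the fit over all 27306 tested probe sets (limma, Benjamini-Hochberg adjusted p under 0.05), 4 passed, or 0.0146%. Among them was TET1 at its brightest probe set (limma adjusted p = 0.00225). The siRNA targets TET2 (log2 difference -1.10, limma adjusted p = 0.198) and TET3 (-1.22, limma adjusted p = 0.0678) did not pass at theirs. A gene that did not pass in this fit is therefore not shown to be unchanged. With the clone as a replicate block 282 passed, or 1.03%.

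Since TET enzymes act on methylated cytosines, the DNA before the sestrin start sites is shown with its CpG dinucleotides in capitals. Each window is the 250 bases before an annotated start in RefSeq (build GRCh38.p14), read 5′ to 3′ on the gene's strand. SESN1 has 3 annotated starts, of which the CpG-richest and the CpG-poorest window are shown, at chr6:109009553-109009802 and chr6:109008989-109009238 on the minus strand. SESN2 lies at chr1:28259268-28259517 on the plus strand and SESN3 at chr11:95232476-95232725 on the minus strand.
SESN1 start 2: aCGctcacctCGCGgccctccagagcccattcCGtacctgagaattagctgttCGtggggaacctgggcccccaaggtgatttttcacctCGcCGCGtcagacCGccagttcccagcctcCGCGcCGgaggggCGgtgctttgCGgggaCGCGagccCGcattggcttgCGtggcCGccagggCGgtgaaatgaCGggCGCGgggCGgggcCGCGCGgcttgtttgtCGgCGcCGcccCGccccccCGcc
SESN1 start 3: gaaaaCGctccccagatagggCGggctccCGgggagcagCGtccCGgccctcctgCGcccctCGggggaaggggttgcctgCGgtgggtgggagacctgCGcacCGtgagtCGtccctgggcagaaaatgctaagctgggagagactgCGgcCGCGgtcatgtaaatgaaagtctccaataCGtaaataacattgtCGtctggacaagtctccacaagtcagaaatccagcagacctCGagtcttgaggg
SESN2: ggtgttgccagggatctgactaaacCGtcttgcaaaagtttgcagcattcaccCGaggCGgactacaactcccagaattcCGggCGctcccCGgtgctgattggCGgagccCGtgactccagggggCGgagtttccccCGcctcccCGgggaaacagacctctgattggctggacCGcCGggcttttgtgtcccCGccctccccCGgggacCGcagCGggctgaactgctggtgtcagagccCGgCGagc
SESN3: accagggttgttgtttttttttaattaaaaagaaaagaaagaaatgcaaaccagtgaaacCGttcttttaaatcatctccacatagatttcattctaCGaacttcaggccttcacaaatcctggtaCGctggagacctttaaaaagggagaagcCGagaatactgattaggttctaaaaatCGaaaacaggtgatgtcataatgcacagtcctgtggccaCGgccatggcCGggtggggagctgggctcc
The SESN1 windows held 32 and 17 CpG, the SESN2 window 19 and the SESN3 window 7. The remaining SESN1 window, at the start farthest upstream, held 23 CpG. Over 35116 windows of 27305 genes the median was 11 CpG, with quartiles of 3 and 23. The genes SESN1 and SESN3 had the largest differences among the brightest probe sets below. The SESN1 windows lay at or above the upper quartile (starts 1 and 2) or between the median and that quartile (start 3). That of SESN3 lay below the median. The SESN3 window was 42.8% G and C, against a median of 58.0% over all windows, and 43.7% of all windows held no more CpG than it did. DNA methylation was not measured in these arrays.

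**Figure D1:**
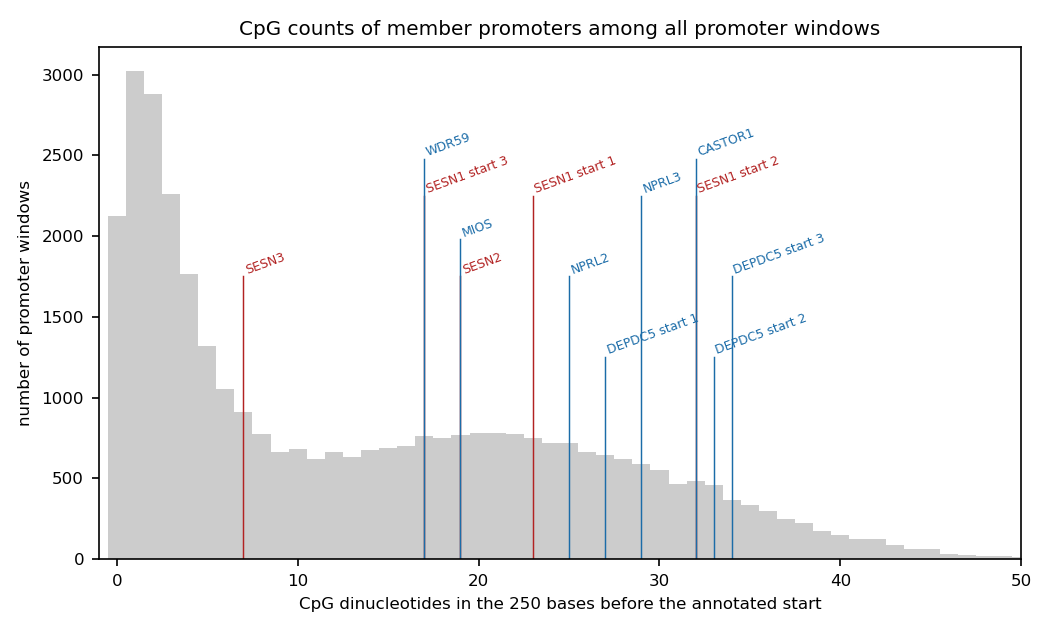
Number of CpG dinucleotides in the 250 bases before each annotated start (x axis) and number of RefSeq promoter windows with that count (y axis, grey bars), with vertical lines for the 13 windows of the 9 genes that had one, sestrins in red and the rest in blue; the height of a line only separates the names. SESN3, at 7 CpG, lies apart from the other windows of these genes, which held 17 to 34.

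Windows were found for 9 of the 10 genes, 13 in all. The 8 windows of CASTOR1 and the GATOR genes held 17 (WDR59) to 34 (DEPDC5) CpG. The forkhead motif GTAAACA, searched on both strands, was in 2.98% of all windows and in 0 of these 13. The E-box CACGTG, searched in the same way, was in 6.34% of all windows and in 0 of these 13. These counts say only that the letters are not in these windows.

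Among the sestrins, SESN1 and SESN3 were higher under TET siRNA in 3 of 3 clones at their brightest probe sets, and SESN2 was higher in 1 of 3 at its own. At the SESN1 probe set (218346_s_at) the signals were 5095, 4533 and 4587 under TET siRNA in clones 1, 2 and 3, and 3540, 3477 and 3505 under control siRNA. The 3 control arrays lay close together and all 3 knockdown arrays lay above them. The means were 4738 ± 310 and 3507 ± 31.4 (SD, n = 3 each), a log2 difference of 0.43 (SE 0.085, 95% interval 0.24 to 0.63), or 1.35-fold. By clone the difference was 0.53, 0.38 and 0.39.

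SESN3, the FOXO-linked family member, is read by 7 probe sets. At the brightest (225123_at) the signals were 4711, 5023 and 5313 under TET siRNA and 3554, 3951 and 3543 under control siRNA. Every knockdown array again lay above every control array, with clone 2 highest among the controls and clone 3 highest under knockdown. The means were 5015 ± 301 and 3683 ± 232 (SD, n = 3 each), a log2 difference of 0.45 (SE 0.091, 95% interval 0.24 to 0.65), or 1.36-fold. By clone it was 0.41, 0.35 and 0.58.

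The other SESN3 probe sets varied more between clones. At 235683_at the signals were 372, 294 and 681 under TET siRNA against 319, 295 and 340, a log2 difference of 0.41 that came mainly from clone 3 (0.22, -0.01 and 1.00 by clone). At 235684_s_at they were 107, 160 and 162 against 107, 124 and 84.1, a difference of 0.44 (0.01, 0.37 and 0.94 by clone). The groups overlapped at both, and clone 1 or clone 2 showed almost no difference. The 4 SESN3 probe sets below the filter had differences of 0.45, 0.05, -0.39 and -0.33, none with the same sign in 3 clones.

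SESN2, the sestrin best known as the leucine sensor, gave signals of 1273, 1053 and 1046 under TET siRNA and 1040, 1157 and 1110 under control siRNA at its brighter probe set (223196_s_at). Clone 1 was higher and clones 2 and 3 were lower under knockdown, and the groups overlapped. The means were 1124 ± 129 and 1102 ± 59.2 (SD, n = 3 each), a log2 difference of 0.02 (SE 0.13, 95% interval -0.27 to 0.31). The second SESN2 probe set (223195_s_at) read 615, 560 and 301 against 537, 485 and 400, a difference of 0.00 with a wide interval (-0.62 to 0.62). In the fit without a clone term, the intervals of both SESN2 probe sets overlap those of SESN1 and SESN3. With the replicate block they were -0.232 to 0.277 at 223196_s_at and -0.365 to 0.361 at 223195_s_at. Those of SESN1 and SESN3 were then 0.274 to 0.591 and 0.281 to 0.611, so 223196_s_at and SESN3 no longer overlapped. The difference between the genes was not tested.

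**Figure D2:**
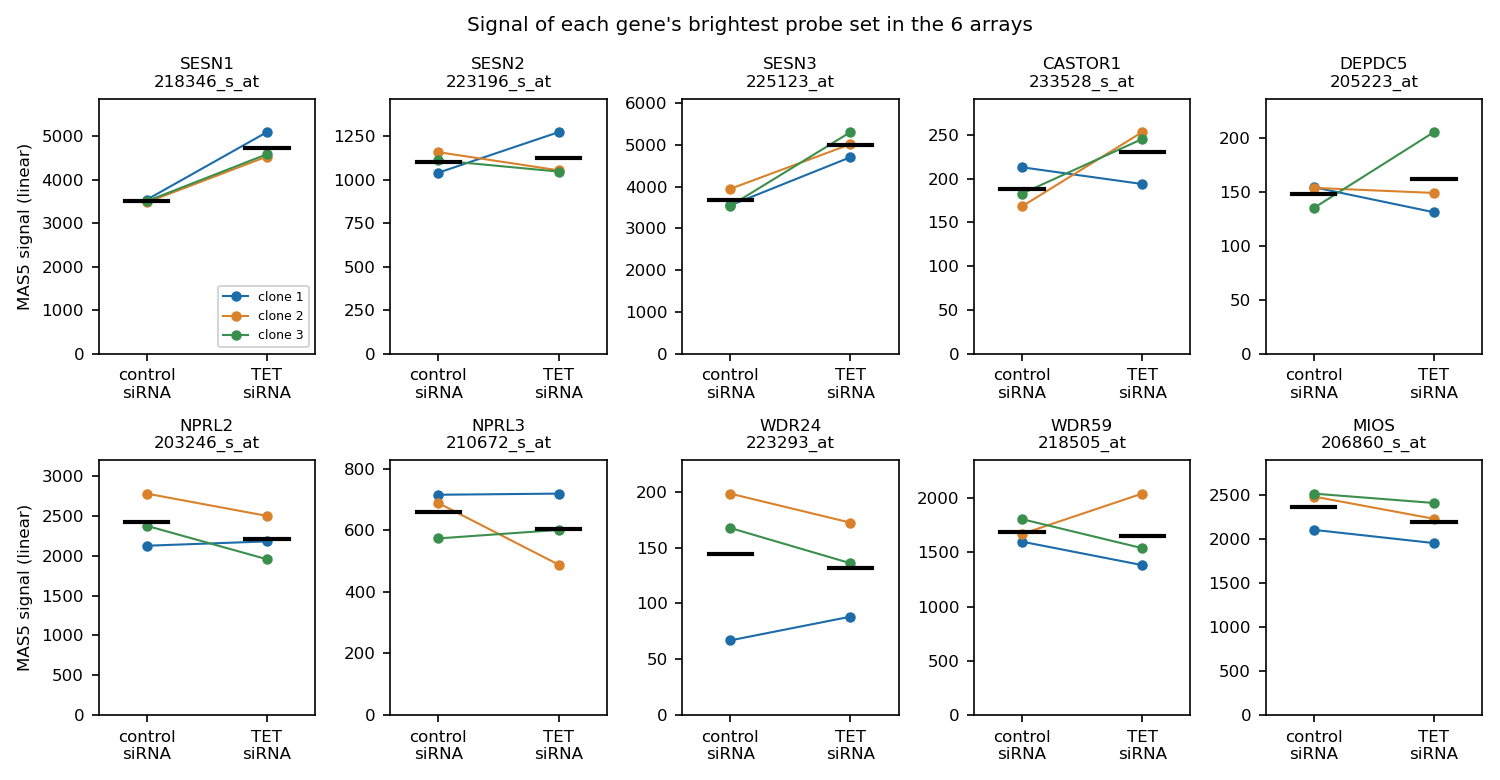
MAS5 signal on a linear axis starting at 0 (y axis) under control siRNA and TET siRNA (x axis) at the brightest probe set of each of the 10 genes; points are single arrays, lines join the arrays of one clone and black bars are group means of 3 arrays. All lines of SESN1 and SESN3 slope upward with no overlap between the groups, while the groups overlap in the other 8 panels.

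CASTOR1, the arginine sensor, gave low signals of 194, 253 and 245 under TET siRNA and 213, 168 and 183 under control siRNA (233528_s_at). Clones 2 and 3 were higher under knockdown and clone 1 was lower, so the groups overlapped. The means were 231 ± 32.2 and 188 ± 22.8 (SD, n = 3 each), a log2 difference of 0.29 (SE 0.22, 95% interval -0.20 to 0.79). The second CASTOR1 probe set lay below the filter and had 1 high and 2 negative clone differences (1.84, -0.29 and -0.28).

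Of the GATOR2 subunits, MIOS has 3 probe sets that passed the filter. Its brightest (206860_s_at) read 1952, 2228 and 2408 under TET siRNA and 2103, 2481 and 2514 under control siRNA. Each clone was slightly lower under knockdown, but the groups overlapped because clone 1 was low in both. The log2 difference was -0.11 (SE 0.12, 95% interval -0.38 to 0.17). It was also -0.11 (SE 0.17) at 211724_x_at, whose suffix marks probes that can bind other sequences. At 209672_s_at, the least bright of the 3, the log2 difference was 0.22 (SE 0.35).

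WDR59, another GATOR2 subunit, read 1382, 2041 and 1538 under TET siRNA and 1598, 1669 and 1806 under control siRNA (218505_at). Clone 2 was higher and clones 1 and 3 were lower under knockdown, for a log2 difference of -0.05 (SE 0.15, 95% interval -0.40 to 0.30). WDR24 was near the filter at 88.1, 172 and 136 against 66.9, 198 and 168 (223293_at), a difference of -0.04 (SE 0.45, 95% interval -1.06 to 0.98). With that spread a WDR24 change of the size seen for SESN1 was not detectable.

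Of the GATOR1 subunits, which together act on the Rag GTPases, NPRL2 read 2182, 2502 and 1957 under TET siRNA and 2127, 2782 and 2377 under control siRNA (203246_s_at). The groups overlapped, with a log2 difference of -0.13 (SE 0.14, 95% interval -0.44 to 0.18). DEPDC5 read 131, 149 and 206 against 155, 154 and 135 (205223_at), a difference of 0.11 (SE 0.26, 95% interval -0.48 to 0.70). Here clone 3 alone was higher under knockdown, by 0.61. Without clone 3 the DEPDC5 difference was -0.14.

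NPRL3 was lower at both of its tested probe sets, but by different amounts. At the brighter one (210672_s_at) the signals were 720, 489 and 602 under TET siRNA and 716, 689 and 574 under control siRNA, a log2 difference of -0.14 (SE 0.18, 95% interval -0.55 to 0.27) that came from clone 2. At 214273_x_at, of the kind whose probes can bind other sequences, they were 396, 345 and 386 against 445, 560 and 432. There all knockdown arrays lay below all control arrays, with a difference of -0.34 (SE 0.17, 95% interval -0.73 to 0.04), and clone 2 again showed the largest one. Without clone 2 it was -0.17.

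**Figure D3:**
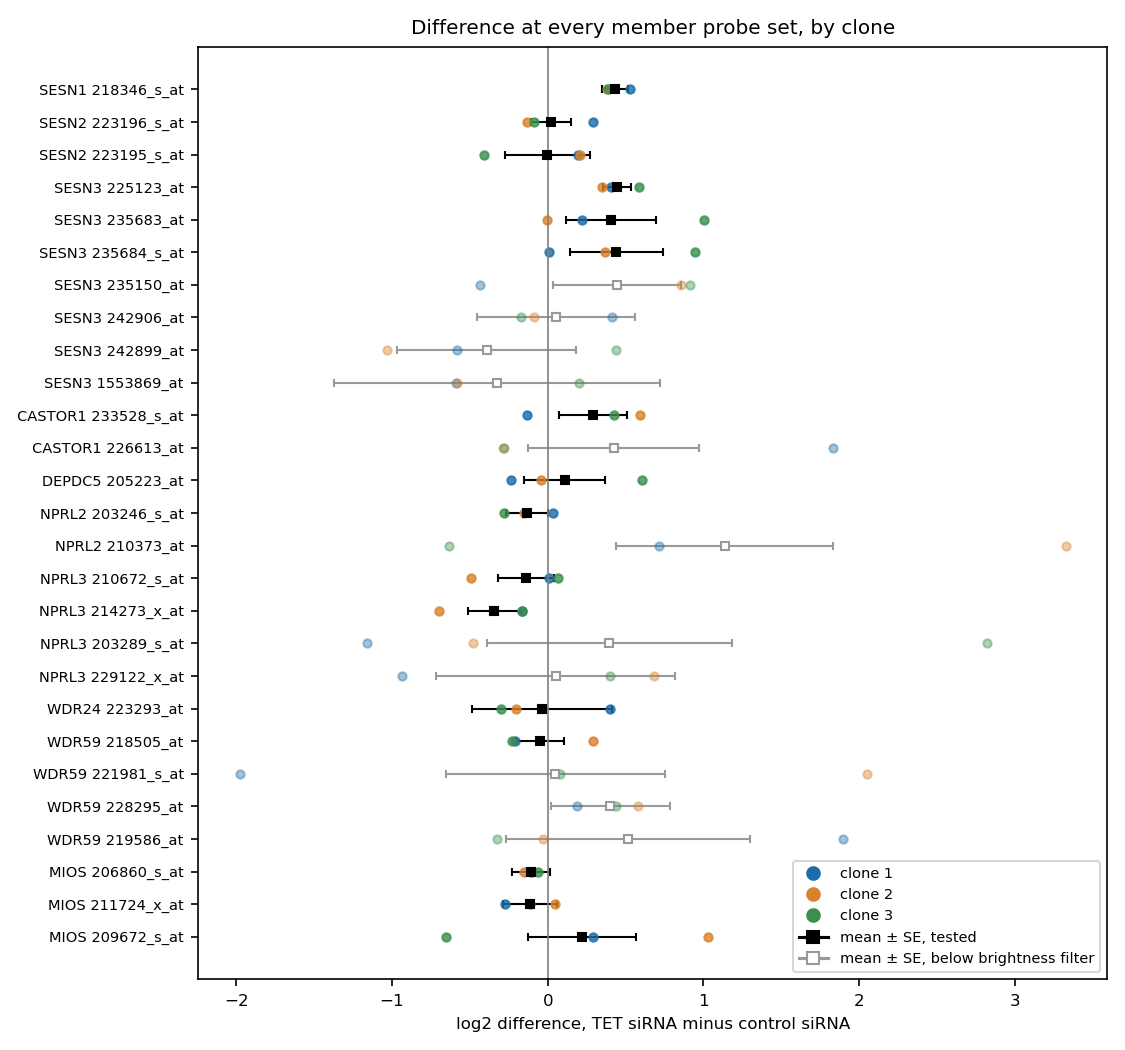
Log2 difference in signal, TET siRNA minus control siRNA (x axis), at each of the 27 probe sets (rows); coloured points are the 3 clones, squares the mean with the SE of the fit without a clone term, and open squares and pale points the 11 probe sets below the brightness filter. SESN1 and the brightest SESN3 probe set lie at 0.43 and 0.45 with narrow bars, while the clones scatter on both sides of 0 at most other probe sets.

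Of the 16 tested probe sets, 8 had a positive and 8 a negative difference. Knockdown arrays lay above control arrays without overlap at 2 of them, SESN1 and SESN3, against 7.21% of all tested probe sets, and below without overlap at 1, NPRL3, against 5.50%. In 3 of 3 clones 3 were higher and 2 were lower, against 20.5% and 15.7% of all. None of the 16 passed the limma threshold without a clone term, against the 0.0146% above, and 2 were under an unadjusted p of 0.05, against 6.61%. With the clone as a replicate block 2 passed, SESN1 and SESN3, and the same number was under an unadjusted p of 0.05, against 14.4%. The share of all tested probe sets that passed as higher in that fit was 0.385%, and nothing is read from these counts, since the genes were chosen from this contrast. On simulated arrays the fit with the block made more false calls than its nominal share. With the block and plain empirical Bayes 0 passed (limma adjusted p = 0.320 for SESN1 and SESN3), and 0 with the block and no filter on dim probe sets. With the block but without clone 1, or without clone 3, 0 passed, and without clone 2 the same 2 passed.

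Taking the brightest probe set of each of the 10 genes, 5 differences were positive and 5 negative with a median of -0.01, and over 12318 genes the median was 0.01 with 51.9% positive. SESN3 and SESN1 formed the upper end of that range and NPRL3, at -0.14, the lower.

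**Figure D4:**
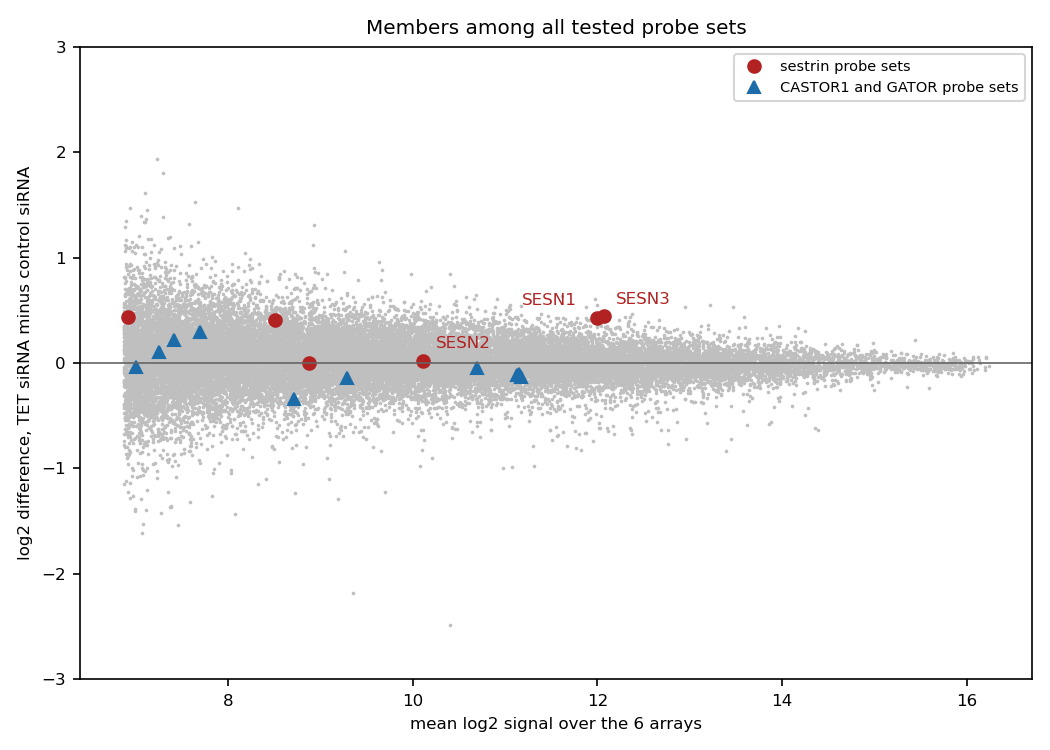
Log2 difference in signal, TET siRNA minus control siRNA (y axis), against the mean log2 signal over the 6 arrays (x axis) for the 27306 tested probe sets (grey), with sestrin probe sets as red circles and CASTOR1 and GATOR probe sets as blue triangles; the 3 named points are each sestrin's brightest probe set. The cloud narrows with brightness, and SESN1 and SESN3, which were chosen with this contrast known, lie at 0.43 and 0.45.

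The 11 probe sets below the filter had geometric mean signals of 8.83 to 102. They belonged to SESN3 (4), WDR59 (3), NPRL3 (2), NPRL2 and CASTOR1. Their differences ran from -0.39 to 1.14, and their median SD within groups was 0.86 on the log2 scale, against 0.22 for the 16 tested ones. The highest, 1.14 at an NPRL2 probe set (210373_at), was made of clone differences of 0.72, 3.33 and -0.64. Only 1 of the 11, at WDR59 (228295_at), had the same sign in 3 clones, with 0.19, 0.58 and 0.44, which its brighter probe set (-0.21, 0.29 and -0.23) did not share.

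The clones themselves were not used to choose the genes, so differences between clones over both treatments were tested, with limma's moderated F test in the fit with treatment and clone. On simulated arrays this test, too, made more false calls than its nominal share. Of the 16 probe sets 1 passed at an adjusted p under 0.05, a MIOS probe set, against 8.27% of all tested probe sets. At an unadjusted p of 0.05, 6 of the 16 passed, against 23.7% of all. At this MIOS probe set (211724_x_at) clone 1 read 1664 and 2011 and the other clones 2341 to 2582. The geometric means of clones 1, 2 and 3 were 1829, 2540 and 2435 (limma adjusted p = 0.035). This call was lost under quantile normalization, with no filter on dim probe sets, with plain empirical Bayes and without any single array of clone 1 or clone 3, and also without clone 1.

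Clone 1 was also low at the brightest MIOS probe set, with 1952 and 2103 against 2228 or more in the other clones, but that one did not pass (limma adjusted p = 0.186). WDR24 spanned the widest range between clones, with geometric means of 76.8, 185 and 151 (limma adjusted p = 0.10), at signals near the filter. The second SESN2 probe set (223195_s_at) was lowest in clone 3, with 575, 521 and 347 (limma adjusted p = 0.080). SESN1 and SESN3 did not pass at their brightest probe sets (limma adjusted p = 0.731 and 0.662). The range between clone means was 0.06 to 1.27 over the 16 probe sets, with a median of 0.30, against 0.28 over all tested ones. Clone and anything that was handled clone by clone cannot be told apart, and whether the response to knockdown differs between clones could not be tested with 1 array per clone and treatment.

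The rest of the pathway was read from 6 lists of 65 other genes, of which 62 were measured. These lists, too, were chosen with earlier results of these data known. By the brightest probe set of each, 27 differences were positive and 35 negative, with a median of -0.03 against 0.01 over all genes. In the limma fit without a clone term 0 of the 62 passed, against 0.0162% of all genes, and 5 were under an unadjusted p of 0.05, against 6.96%. With the clone as a replicate block 11 of the 62 were under it, against 16.1%. After adjustment 1 gene passed as higher, SAMTOR, and 1 as lower, RPS6KB1, against 0.479% of all genes higher and 0.836% lower. On simulated arrays the fit with the block made more false calls than its nominal share, and with the block and plain empirical Bayes neither gene passed (limma adjusted p = 0.320 for both). Between the clones, 10 of the 62 passed limma's moderated F test, against 10.4% of all genes, and 0 of these 10 passed with plain empirical Bayes or without clone 1.

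SAMTOR, which senses S-adenosylmethionine and binds GATOR1 and its KICSTOR partner complex, read 3443, 3806 and 3939 under TET siRNA and 2681, 2821 and 2849 under control siRNA (228149_at). The groups did not overlap. The means were 3729 ± 257 and 2784 ± 89.9 (SD, n = 3 each), a log2 difference of 0.42 (SE 0.092), or 1.34-fold, with 0.36, 0.43 and 0.47 by clone. The limma adjusted p was 0.321 without and 0.0247 with the replicate block. With the block it was 0.0886 without clone 1, 0.0123 without clone 2, 0.257 without clone 3 and 0.115 with no filter on dim probe sets.

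RPS6KB1, which encodes the mTORC1 substrate S6 kinase, read 5820, 6505 and 6185 under TET siRNA and 7989, 8771 and 8524 under control siRNA (226660_at). All knockdown arrays were below all control arrays. The means were 6170 ± 343 and 8428 ± 400 (SD, n = 3 each), a log2 difference of -0.45 (SE 0.081), 1.37-fold lower, with -0.46, -0.43 and -0.46 by clone. The limma adjusted p was 0.198 without and 0.0079 with the replicate block, and with the block it was 0.0549 without clone 1, 0.0019 without clone 2 and 0.133 without clone 3. The other RPS6KB1 probe sets had differences of -0.25 and -0.13 and did not pass.

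**Figure D5:**
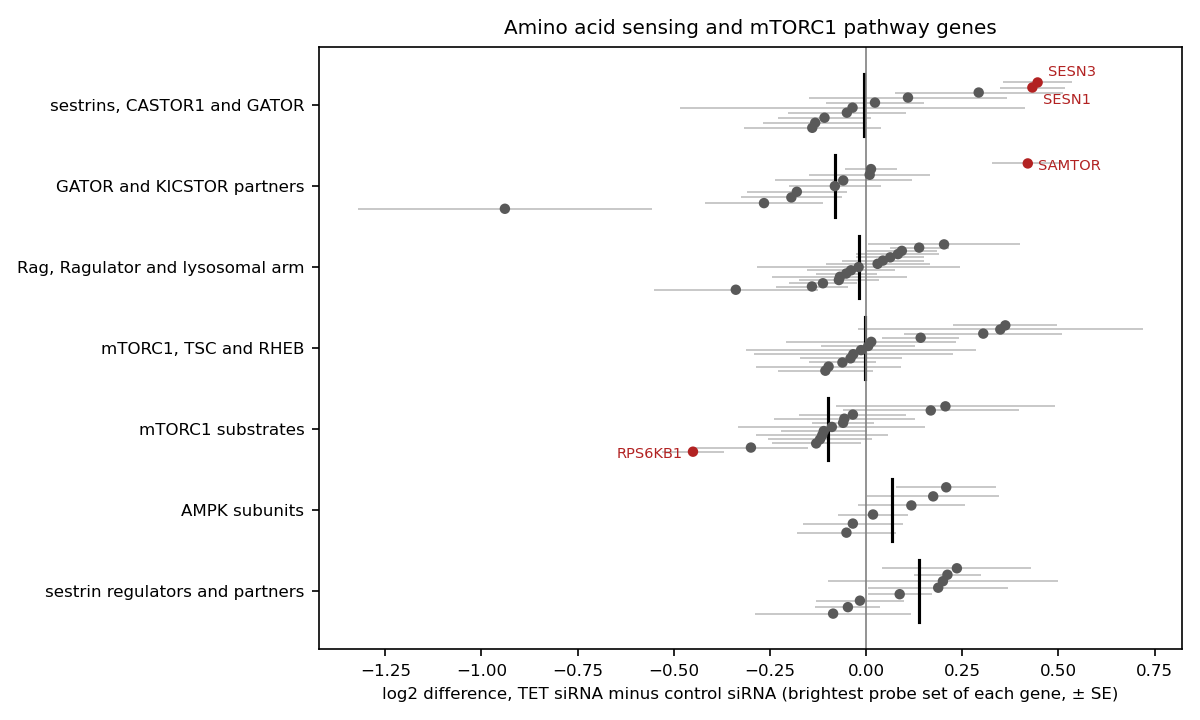
Log2 difference in signal, TET siRNA minus control siRNA (x axis), at the brightest probe set of each measured gene, grouped by list (rows); points are genes with the SE of the fit without a clone term, black ticks are list medians, and red named points passed the limma threshold with the clone as a replicate block. List medians run from -0.10 (mTORC1 substrates) to 0.14 (sestrin regulators and partners). The named genes are SAMTOR, RPS6KB1, SESN1 and SESN3, of which SESN1 and SESN3 were chosen with this contrast known.

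Among GATOR and KICSTOR partners, 9 of 10 genes were measured, 3 positive and 6 negative, with a median of -0.08. SAR1B, a further leucine-sensing protein, showed how much a probe set can matter. Its brightest probe set was at -0.06, and its probe set 226742_at, which was picked out after its values were seen, was at 0.43 with 4250, 4372 and 4477 against 3519, 3122 and 3123 (limma adjusted p = 0.0275 with the replicate block). The lowest value in the list was that of CASTOR2, the paralog of CASTOR1, also singled out after its values were seen. It read 145, 297 and 469 against 462, 649 and 474, a log2 difference of -0.94 (SE 0.38) with -1.68, -1.13 and -0.01 by clone, and it did not pass (limma adjusted p = 0.735 without and 0.187 with the block).

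In the Rag, Ragulator and lysosomal list, which holds the anchors of mTORC1, 15 of 16 genes were measured, with 7 positive, 8 negative and a median of -0.02. The smallest p-values belonged to ATP6V1A, a proton pump subunit (0.14), and FLCN, which acts on the Rag GTPases (-0.34), and neither passed in either fit. The list of mTORC1, TSC and RHEB had 6 positive and 6 negative genes of 12, with 0.36 for MLST8 and 0.30 for RPTOR, both mTORC1 subunits, and neither passed. Of 12 mTORC1 substrates 2 were positive and 10 negative, with a median of -0.10, against a median of 0.01 and 51.9% positive over all genes. None of the 12 passed without the block and RPS6KB1 alone with it, against 0.0162% and 1.32% of all genes. Of 6 AMPK subunits 4 were positive, with a median of 0.07, and PRKAB2 (0.21) and PRKAB1 (0.17), which had the smallest p-values, did not pass.

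In the list of known regulators and partners of sestrins, 8 of 9 genes were measured, and 5 were positive and 3 negative, with a median of 0.14. None passed in either limma fit, against 0.0162% and 1.32% of all genes, and 1 was under an unadjusted p of 0.05 without a clone term and 3 with the replicate block, against 6.96% and 16.1% of all genes. FOXO1, FOXO3 and FOXO4, the forkhead factors linked to SESN3, were at -0.02 (SE 0.11), 0.09 (SE 0.083) and 0.20 (SE 0.30). ATF4, linked to SESN2, was at -0.09 (SE 0.20), and NFE2L2, an oxidative stress factor, at -0.05 (SE 0.085). MDM2, induced by DNA damage as SESN1 is, was at 0.21 (SE 0.087), while KEAP1 and SQSTM1, which bind each other and sestrins, were at 0.24 (SE 0.19) and 0.19 (SE 0.18).

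The genes whose log2 signals over the 6 arrays were most like those of SESN1, of 12317 other genes by their brightest probe sets, were CFAP184 (Pearson r = 0.993), BRD3OS (0.991) and BORCS7 (0.989). For SESN3 they were CRYM (0.989), STXBP6 (0.986) and ASXL3 (0.986). A correlation over 0.95 was reached by 49 genes with SESN1 and by 30 with SESN3, and SESN1 and SESN3 themselves correlated at 0.874. How many genes reach 0.95 with any other gene was not counted, so nothing is read from these counts. These values are a description over 6 arrays that share 2 treatments and 3 clones, so genes that differ between the treatments resemble one another in this measure.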

How the data were processed

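Total RNA of 6 samples was hybridised to one-colour arrays, 3 clones under TET siRNA and the same 3 under control siRNA, per the labels. The authors deposited intensities on a linear scale, 1 MAS5 signal per probe set and array. The tool is named by the submitters' processing notes, with the version not given in the sources used here. Each array's mean without the extreme 2% at each end was 1000.13, so the values had been scaled before deposit and were used as they were. MAS5 leaves dim probe sets noisy, and precision is limited by how few arrays there are. The order and batch of processing are not in the labels. The RNA came from 3 clones of 1 line. Without a clone term, p-values set a difference against the spread between these clones within each group. With the replicate block, and in the F test between clones, they rest on the spread left after treatment and clone are fitted.

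Of 54675 probe sets 62 controls were set aside. Platform annotation gave 1 gene for 41091, several for 1801 and none for 11721; 41037 of the first had their Entrez ID in RefSeq's gene table. The upper 50% by mean log2 signal (geometric mean of at least 117) was fitted with limma 3.58.1 in R 4.3.3, trended and robust, with no clone term, two-sided, Benjamini-Hochberg adjusted over 27306 probe sets at 0.05; dim probe sets were read from a fit without the filter. Intervals are 95%. The clone number in the labels pairs the arrays. The 2 arrays of a clone deviated together from their groups' means, at correlations of 0.493, 0.234 and 0.236, above the limit of 0.1. The highest value between different clones was 0.219, for the knockdown array of clone 2 and the control array of clone 3. It also lay above the limit, so the check sets clones 2 and 3 only narrowly apart. The replicate block lowered the median residual SD from 0.200 to 0.134. All tests were run on 1 draw of simulated arrays.

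The members and gene lists were chosen with earlier results of these data known. All member probe sets are named; in other lists, genes that passed in either fit (at most 4) or else the 2 of smallest p, all measured regulators, and the 3 genes most correlated with SESN1 and SESN3. Alternatives were the block, no brightness filter, a filter at the upper 30%, a pseudocount of 36.1, quantile normalization, plain empirical Bayes and leaving out each array and clone. Plots used matplotlib 3.10.9.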

Additional observations from a re-analysis of the deposited data

How the results depend on the processing

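The clone as a block cannot move a difference in this balanced design. Over the 11 other alternatives for each of the 27 probe sets, 297 values, the sign was kept in 252 and changed in 45, at 15 probe sets. SESN1 stayed between 0.38 and 0.46 and the brightest SESN3 probe set between 0.38 and 0.50. Values moved beyond the spread between replicates at 4 probe sets: SESN2 (223196_s_at) to -0.11 and CASTOR1 (233528_s_at) to 0.51 without clone 1, NPRL3 (214273_x_at) to -0.17 without clone 2 and DEPDC5 to -0.14 without clone 3.

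The number of probe sets that passed between the treatments was 4; it was 282 with the replicate block, 14 with the upper 30%, 1 with plain empirical Bayes, 0 with the block and plain empirical Bayes (3355 at an unadjusted p under 0.05) and 70 with the block and no filter. It ran from 0 to 121 when an array or a clone was left out. The 0 values, without clone 2 or without clone 3, stand beside 946 and 550 at an unadjusted p under 0.05, and the 121 was without clone 1. With the block it was 108, 684 and 63 without clone 1, 2 and 3. Of the 16 probe sets of the sestrins, CASTOR1 and GATOR genes, 0 passed without and 2 with the replicate block; with the block 0 passed under plain empirical Bayes or no filter, and 0 to 2 when a clone was left out. Of the 62 pathway genes 0 passed without and 2 with the replicate block, 3 with every tested probe set counted (SAR1B added, an alternative chosen after seeing the data), 0 with the block and plain empirical Bayes and 1 with the block and no filter (RPS6KB1). Leaving out an array or clone gave 0 to 1 without the block (RPS6KB1, without clone 1) and 0 to 2 with it, where the 1 without clone 3 was CASTOR2.

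Between clones 2259 probe sets passed, 847 with no filter, 1 with plain empirical Bayes and 29 (without clone 1) to 4600 (without the control array of clone 2) when arrays or clones were left out. Of the 16 probe sets 1 passed; 0 did with no filter, quantile normalization or plain empirical Bayes, and 0 to 4 with arrays or clones left out. The causes were not tested. Below a signal of about 117, differences smaller than the spread between arrays were not detectable.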

Other observations

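The test between the clones was also read for the genes around the sestrins. It made more false calls than its nominal share on simulated arrays. In limma's moderated F test over the 3 clones 10 of the 62 pathway genes passed at an adjusted p under 0.05, against 10.4% of all genes. Recounted under each alternative after the data were seen, 0 of these 10 passed with plain empirical Bayes or without clone 1, 4 when dim probe sets were included, 1 and 2 without the knockdown or the control array of clone 1, 5 and 4 without those of clone 3, and 8 without clone 3. Under the other 6 alternatives without a block all 10 passed. The genes named next were picked out after their values were seen. DDIT4, a stress-induced inhibitor of mTORC1, had geometric mean signals of 5270, 10047 and 9437 in clones 1, 2 and 3 (limma adjusted p = 0.0013). ATF4, which drives amino acid response genes, read 29375, 44479 and 43074 (0.0099), and EIF4EBP1, a translation repressor that mTORC1 phosphorylates, 4549, 6473 and 6450 (0.0091). GRB10, another mTORC1 substrate, read 3441, 4503 and 4253 (0.0396). These 4 were lowest in clone 1.

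Clone 1 was highest for SQSTM1, an autophagy receptor, with 3658, 2497 and 2685 (limma adjusted p = 0.0088), and for KEAP1, its partner, with 1625, 1186 and 1107 (0.0278). SAR1B (9249, 6346 and 6948, adjusted p = 0.0109), the proton pump subunit ATP6V0D1 (1787, 1193 and 1396, adjusted p = 0.0340) and the lysosomal arginine sensor SLC38A9 (1711, 1231 and 1286, adjusted p = 0.0443) were likewise highest in clone 1. SEC13, a GATOR2 subunit that also serves in vesicle coats and nuclear pores, was highest in clone 3, with 10623, 10213 and 13277 (limma adjusted p = 0.0252). Each clone mean rests on 2 arrays, 1 per treatment.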
